A study of Mus musculus with 42 samples.

Results

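Keratins Krt7, Krt8, Krt18, Krt19 and Krt42 were followed through 32 polyA RNA sequencing libraries of mouse embryonic stem cells (ESCs) and their derivatives. These 5 genes were taken by name from 17552 genes in 2 expression tables, which hold 22 genes named Krt and a number. They were chosen from their measured levels in these same libraries, so their levels and differences are given as a description with no test. All 5 are in both tables, and all 5 had a mean of at least 1 normalised read in each model fitted below.

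The cells were of 2 lines. KH2-ISY1 carries a Flag-tagged copy of the splicing factor ISY1 that is switched on by doxycycline (Dox), and its Dox-free libraries serve as the reference throughout. The other line is a DGCR8 knockout, which lacks a partner of the nuclease that starts microRNA processing. The first table, called the EpiLC table here, follows cells that left 2i/LIF, the medium of naive ESCs, for the medium that makes epiblast-like cells (EpiLCs). It holds KH2-ISY1 without Dox at 0, 6, 12, 18, 24, 30, 36, 48, 72 and 96 h, KH2-ISY1 with Dox at 24, 48, 72 and 96 h, and the knockout at 0, 6, 24, 48, 72 and 96 h. It also holds 4 libraries of converted ESCs (cESCs), which were EpiLCs of 24 or 48 h, grown without or with Dox, put back into 2i/LIF with no Dox. The second table, the EB table, holds KH2-ISY1 without Dox in serum/LIF (day 0) and as embryoid bodies (EBs) at days 1, 2, 4, 8, 10 and 13, and KH2-ISY1 in serum/LIF with Dox. Every condition and time had 1 library, so no single value has a replicate error. No library of a line without the transgene had Dox, and the knockout is a separate line, so that Dox and induced ISY1, and line and DGCR8 loss, cannot be told apart.

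Values are gene read counts divided by 1 factor per library, written here as normalised reads. A library held 5.8 to 56.02 M reads, and 1 read was worth 0.0952 to 0.935 normalised reads. A count of 0 allows up to 3 reads in a library, for counting error only. Isy1 was at 708 to 3038 normalised reads in the 4 EpiLC libraries with Dox against 396 to 558 at the same hours without it, and at 5096 against 328 in serum/LIF. Dgcr8 was at 36.8 to 44.5 in the 6 knockout libraries and at 75.2 to 231 at the same hours in KH2-ISY1 without Dox, and the tables do not show which exons the remaining reads come from. The summed level of 10 pluripotency markers lay between 9929 and 27916 in the 24 EpiLC-table libraries, and went from 20007 in serum/LIF to 1536 at EB day 13. Among the cESCs, the library from 24 h EpiLCs without Dox stood furthest from naive cells, with 24.3% of genes past 2-fold, against 17.0% for the one from 48 h EpiLCs with Dox, 13.7% for 48 h without Dox and 12.2% for 24 h with Dox.

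Keratins build the intermediate filaments of epithelial cells. A filament is made of equal numbers of type I and type II chains, and a chain without a partner of the other type is degraded. Krt8 (type II) and Krt18 (type I) are the pair of simple epithelia and the first keratins of the mouse embryo, where they mark trophectoderm and the extra-embryonic endoderm. Krt7 (type II) is found in ducts and trophoblast, and Krt19 (type I), which lacks most of the tail domain, joins Krt8 in simple epithelia. Krt42 (type I) is known in the mouse from the nail unit.

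In the RefSeq annotation of GRCm38.p6 the type II genes and Krt18 lie together on chromosome 15, with Krt7 at chr15:101412403-101427806, Krt8 at chr15:101996711-102004342 on the minus strand and Krt18 at chr15:102028216-102032026 on the plus strand. The starts of Krt8 and Krt18 face away from each other across 23874 bp. The other type I genes lie on chromosome 11, Krt19 at chr11:100140810-100145926 and Krt42 at chr11:100262882-100269951. A further row of both tables, Krt8-ps, is a pseudogene on chromosome 7 (chr7:23357094-23358779). It held 0.105 to 0.159 reads per Krt8 read in all 32 libraries, a range of 1.51-fold, and how reads of near-identical copies were counted is not given in the sources used here, so Krt8 values are uncertain to that extent.

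The Krt8 and Krt18 promoters are shown because the pair forms a filament together, sits side by side and yet did not keep a fixed ratio of reads in these cells. Each run covers 250 bases before to 20 bases after the RefSeq start, 5′ to 3′ on the strand of the gene. Capitals mark TATAAA on either strand.
Krt8 (chr15:102004323-102004592, minus strand): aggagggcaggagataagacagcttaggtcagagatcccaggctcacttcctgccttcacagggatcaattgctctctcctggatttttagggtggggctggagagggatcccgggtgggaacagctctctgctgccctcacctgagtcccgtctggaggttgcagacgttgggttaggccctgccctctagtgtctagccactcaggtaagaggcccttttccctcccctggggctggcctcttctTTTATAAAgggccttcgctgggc
Krt18 (chr15:102027966-102028235, plus strand): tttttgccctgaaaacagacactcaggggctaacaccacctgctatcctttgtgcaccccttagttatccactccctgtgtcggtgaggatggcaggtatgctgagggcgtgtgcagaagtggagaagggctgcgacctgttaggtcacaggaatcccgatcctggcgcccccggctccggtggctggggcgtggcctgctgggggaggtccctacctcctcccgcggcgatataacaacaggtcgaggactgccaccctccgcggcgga
The TATA motif TATAAA, the GC-box motif GGGCGG and the bZIP motif TGANTCA were searched on both strands of the table's full windows, 250 bases before to 50 after the start. Of 32851 such windows, 13.6% hold TATAAA, 35.7% hold GGGCGG and 7.81% hold TGANTCA. The Krt8 window has TATAAA starting 1 base before the annotated start, overlapped by a match on the opposite strand, and the Krt18 window holds none of the 3 motifs. Krt42 has TATAAA from base 20 after its start, and Krt7 has GGGCGG on the gene strand 141 and 128 bases before its start and on the opposite strand 56 and 24 bases before it. A match is a description of letters, not of a bound site.

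In EpiLC medium without Dox, Krt8 was high at 6 h and again at 96 h. Its level was 480.0, 1349, 662, 480.2, 396, 229, 343, 339.8, 585.5 and 1137 normalised reads at 0, 6, 12, 18, 24, 30, 36, 48, 72 and 96 h. The 6 h library was 2.81-fold above naive cells, the lowest level was at 30 h, and the 96 h library was 2.37-fold above naive cells. In bulk RNA a smaller number of cells with a transcript and less of it per cell cannot be told apart, here and in every result below.

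Krt18 had the same early peak and a larger late increase. It stood at 218, 802, 271, 215, 170.0, 227, 205, 759, 881.5 and 2262 normalised reads over the same 10 times. The 6 h library was 3.68-fold and the 96 h library 10.4-fold above naive cells. Between 12 and 36 h all 5 libraries were between 170.0 and 271, and the 3 libraries from 48 h on were all above that range.

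Krt19, the other simple-epithelial type I chain, had the sharpest peak. Its values were 18.3, 288, 130.5, 43.0, 21.8, 7.1, 21.3, 4.4, 28.0 and 212 normalised reads. It was 15.7-fold above naive cells at 6 h and 11.6-fold above them at 96 h, with its lowest level at 48 h (5 reads).

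Krt7 moved apart from Krt8, the other type II chain. It was at 66.1, 30.4, 11.4, 4.1, 1.8, 4.7, 1.8, 9.7, 25.5 and 21.3 normalised reads. The naive library was the highest, and the values of 24 and 36 h rest on 2 and 3 reads, so no fold is given for them.

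Krt42 was highest in the first day and nearly gone at the end. Its values were 128, 399, 432, 301, 166, 198, 240.2, 59.3, 21.5 and 6.8 normalised reads. Its peak was at 12 h, and the 96 h library was 18.8-fold below naive cells. Thus Krt18 and Krt42, both type I chains, took opposite courses after 36 h.

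**Figure D1:**
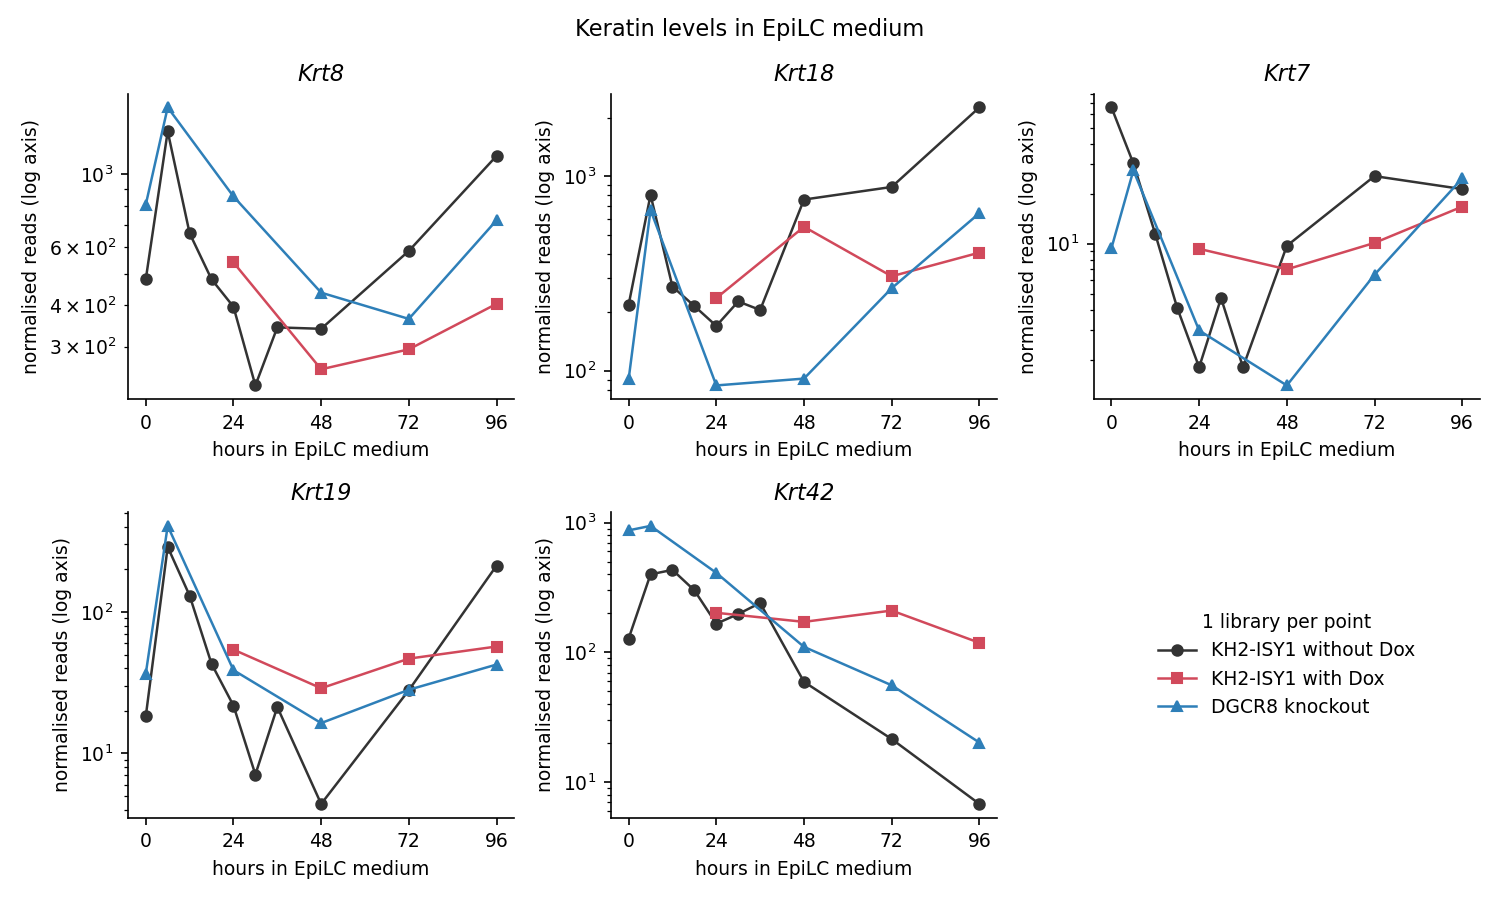
Normalised reads (log axis) of each keratin against hours in EpiLC medium, 1 library per point, for KH2-ISY1 without Dox (black circles), with Dox (red squares) and the DGCR8 knockout (blue triangles). Krt8, Krt18 and Krt19 have a peak at 6 h in black and blue, which Krt18 in black exceeds at 96 h (2262). Krt42 reaches 6.8 at 96 h without Dox but 119 with it.

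The course over time was fitted for every gene with limma, and a gene was called where its adjusted p was under 0.05. In this course and in that of EBs the adjusted p is for any change over time. A rise or fall, or an end higher or lower, is the sign of the fitted end minus the start, which was not tested by itself. Of all genes tested, 50.1% were called, and all 5 keratins were among them, which is read as a description only since these values chose the genes. By the fit Krt8, Krt18 and Krt19 ended above their start, where 25.4% of all genes were called higher, and Krt7 and Krt42 below it, where 24.8% were called lower. The sign of Krt8 and of Krt19 depended on the naive library: without it the fitted change, in log2, was -0.24 for Krt8 and -0.61 for Krt19, against 1.18 and 3.21 with it, the course then starting at the 6 h peak. With 1 spline degree of freedom fewer the changes were -0.06 and -0.40.

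The 6 h peak was also present in the knockout line. From 0 to 6 h in the knockout, Krt19 went from 36.6 to 406 normalised reads (11.1-fold), Krt18 from 90.3 to 671 (7.43-fold) and Krt8 from 809 to 1595 (1.97-fold). Past 2-fold upward between these 2 libraries were 7.89% of genes, against 10.5% between the same hours in KH2-ISY1. Krt42 was the exception, 3.13-fold higher at 6 h in KH2-ISY1 but at 872 and 943 in the knockout, which was already high at 0 h. Krt7 went the other way in the 2 lines, from 66.1 to 30.4 in KH2-ISY1 and from 9.4 to 27.6 in the knockout.

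Other keratins appeared at 6 h too, among them chains of stratified epithelia. Of the 12 other keratins that could be compared between 0 and 6 h in KH2-ISY1, 9 were past 2-fold higher and 1 lower, with a median log2 difference of 2.51 against -0.08 for all genes. Of those higher, only Krt13 (15.7 to 57.1) and Krt17 (105.2 to 336.9) were above 0 at 0 h. The rest reached the mean of 1 needed for comparison through their 6 h value alone. They could therefore only count as higher, and the median includes them. Krt6a, a keratin of stressed and regenerating epidermis, was at 0 at 0 h, at 99.4 normalised reads at 6 h and at 4.8 at 12 h. Krt5, the type II chain of basal keratinocytes, was at 0, 95.8 and 58.7 at those times and at 24.4 at 18 h. In the knockout 4 of 10 other keratins were past 2-fold higher at 6 h and 0 lower, where 4.66% of all genes were past 2-fold lower, with a median of 0.91 log2 against 0.01 for all genes. These 4 were at no more than 0.6 normalised reads at 0 h and 5.7 at 6 h. They too reached the mean of 1 only through the 6 h library, so they could not count as lower. Krt6a and Krt5 reached 3.3 and 4.3 normalised reads in that library, far below their level in KH2-ISY1. Krt16, Krt17 and Krt13, type I chains of stratified epithelia, were nearer, at 44.8, 240.0 and 23.8 at 6 h in the knockout after 27.8, 125 and 12.5 at 0 h, against 60.1, 337 and 57.1 at 6 h in KH2-ISY1.

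Markers of other cell types also moved in the 6 h library. The summed level of 14 measured trophoblast markers was 617.5 at 0 h, 1678 at 6 h and between 210.5 and 778 at the 8 later times, with Tead4 alone at 1130 at 6 h. Of 13 that could be compared between these 2 libraries, 6 were past 2-fold higher and 2 lower, where 10.5% and 14.3% of all genes were. Of the defining genes, Cdx2 was at 0.9 and 34.5, Gata3 at 2.6 and 52.4 and Elf5 at 5.2 and 10.1 at 0 and 6 h, while Tfap2c was at 149 and 28.0 and Gata2 at 45.2 and 12.5. Among the 14, 1 was at or under 3 reads at 6 h against 4 at 0 h. The sum for 11 primitive and visceral endoderm markers was 2332 at 0 h and 1230 at 6 h. In the knockout the trophoblast sum was 747 at 0 h and 974 at 6 h. Their part in the keratin peak was not tested.

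Several partners of keratin filaments varied along the same course, each tested with limma and adjusted over all 16206 genes. Of the 16 measured desmosome proteins and keratin linkers, 5 ended higher, 8 ended lower and 3 did not pass, with a median log2 change of -0.02, equal to the -0.02 of all genes. Some called genes had an end-to-start change smaller than its SE, among them Dst (-0.095 ± 0.20 log2), Plec (-0.30 ± 0.72) and Jup (0.20 ± 0.43). Pkp2, a desmosome plaque protein that binds keratin anchors, rose by 3.10 ± 0.32 log2 (fitted change ± SE, n = 10 libraries, adjusted p = 7.49e-05), from 90.4 at 0 h to 759 normalised reads at 96 h. Evpl and Ppl, which tether filaments to the desmosome, rose by 2.06 ± 0.71 and 2.03 ± 0.35 log2 (adjusted p = 0.00758 and 0.000245). Col17a1, a hemidesmosome collagen, fell by 2.77 ± 0.74 log2 (adjusted p = 0.0407).

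Dsp (desmoplakin), the linker from desmosome to keratin, changed with time (adjusted p = 0.00374) but ended near its start. It was at 409.6 at 0 h, 535.1 at 6 h, 55.5 at 24 h, 88.5 at 48 h and 387 at 96 h. Krt18 was also lowest at 24 h, at 170.0 against 218 in naive cells, but was at 759 at 48 h, where Dsp was still low. Krt8 was lowest at 30 h (229). Jup (plakoglobin) also changed (adjusted p = 0.00343) and was highest at 6 h, at 1992 against 479 at 0 h and 658 at 96 h. Vim (vimentin), the intermediate filament protein of mesenchyme, changed as well (adjusted p = 0.00354), at 71.3 at 0 h, 1524 at 6 h and 159 at 96 h, so that it shared the 6 h peak but not the late increase of Krt8 and Krt18.

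Among the other keratins 13 were tested in this course, of which 2 ended higher, 5 lower and 6 did not pass, with a median of -0.40 log2. Krt12 and Krt20 ended higher, Krt20, a keratin of gut epithelium, from 0 at 0 h to 19.1 normalised reads at 96 h (adjusted p = 0.0248). Krt13 and Krt16 fell, with changes of -4.03 ± 1.0 and -4.25 ± 1.01 log2 (adjusted p = 0.000554 and 0.00557). Krt5 changed (adjusted p = 0.00225) through its early peak, Krt80 ended lower (adjusted p = 0.000775), from 26.1 at 0 h to 5.5 at 96 h (a fitted change of -1.77 log2, and 0.36 without the 0 h library), and Krt14, the type I partner of Krt5, did not pass (adjusted p = 0.374) and never exceeded 4.0 normalised reads.

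Epithelial junction and polarity genes were the list with most members ending higher, 18 of 25 against 2 lower and 5 not called, at a median of 1.5 log2. The tight-junction claudins Cldn6 and Cldn3 rose by 4.98 ± 0.47 and 3.37 ± 0.53 log2 (adjusted p = 0.000108 and 0.000752), Rab25 by 3.79 ± 0.57 and the splicing regulator Esrp1 by 3.03 ± 0.63 (adjusted p = 0.000176 and 0.00019). Of 12 other intermediate filament genes 7 ended higher and 1 lower (median 1.31), led by the neuronal Prph (4.36 ± 0.65, adjusted p = 0.00018) and Ina (3.78 ± 0.39, adjusted p = 4.63e-05), with Nes at 1.98 ± 0.61 (adjusted p = 0.00214). The nuclear Lmna fell by 1.80 ± 0.33 (adjusted p = 5.81e-05).

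Lists of other cell types did not go one way. Of 13 trophoblast markers 3 ended higher and 6 lower (median -0.02 log2), with Gata2, Tfap2a, Tfap2c and Tead4 at -4.31, -3.18, -2.69 and -2.62 (adjusted p = 0.00382, 0.000776, 0.000443 and 0.000272). Of 11 primitive and visceral endoderm markers 5 ended higher and 4 lower (median -1.51), Col4a1 and Cubn rising by 4.10 and 4.06 (adjusted p = 3.43e-05 and 0.00094) while Lama1 and Gata6 were at -5.22 and -3.55 (adjusted p = 2.17e-05 and 0.00342). Of 4 surface ectoderm markers 1 ended higher (Dlx3) and 2 lower (median 0.57), among them Grhl3, which fell by 3.70 (adjusted p = 0.000196). Of 4 feeder fibroblast markers 3 ended higher and 1 lower (median 0.87), with Thy1 rising by 2.49 (adjusted p = 0.0208). At 96 h, where Krt18 was highest, the summed levels of the trophoblast, endoderm, surface ectoderm and feeder markers were 254, 2116, 29.3 and 203, against 617.5, 2332, 310.4 and 111 in naive cells, and their part in the Krt18 level was not tested.

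The ratio of Krt18 to Krt8 reads was not constant in this medium. Transcript lengths are not in the tables, so the ratio is read only across libraries and not as a proportion of chains. Without Dox it was between 0.409 and 0.598 in 6 of the 7 libraries up to 36 h, 0.993 at 30 h, and 2.23, 1.51 and 1.99 at 48, 72 and 96 h. With Dox it was 0.438, 2.15, 1.04 and 1.00 at 24, 48, 72 and 96 h. In the knockout it was 0.112, 0.421, 0.0981, 0.208, 0.73 and 0.891 at 0, 6, 24, 48, 72 and 96 h, below KH2-ISY1 without Dox at 6 of 6 hours. Over all 32 libraries the ratio spanned 22.7-fold. In the EB course it stayed within a narrower band, from 0.555 at day 0 to 1.13 at day 2 and 0.627 at day 13.

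**Figure D2:**
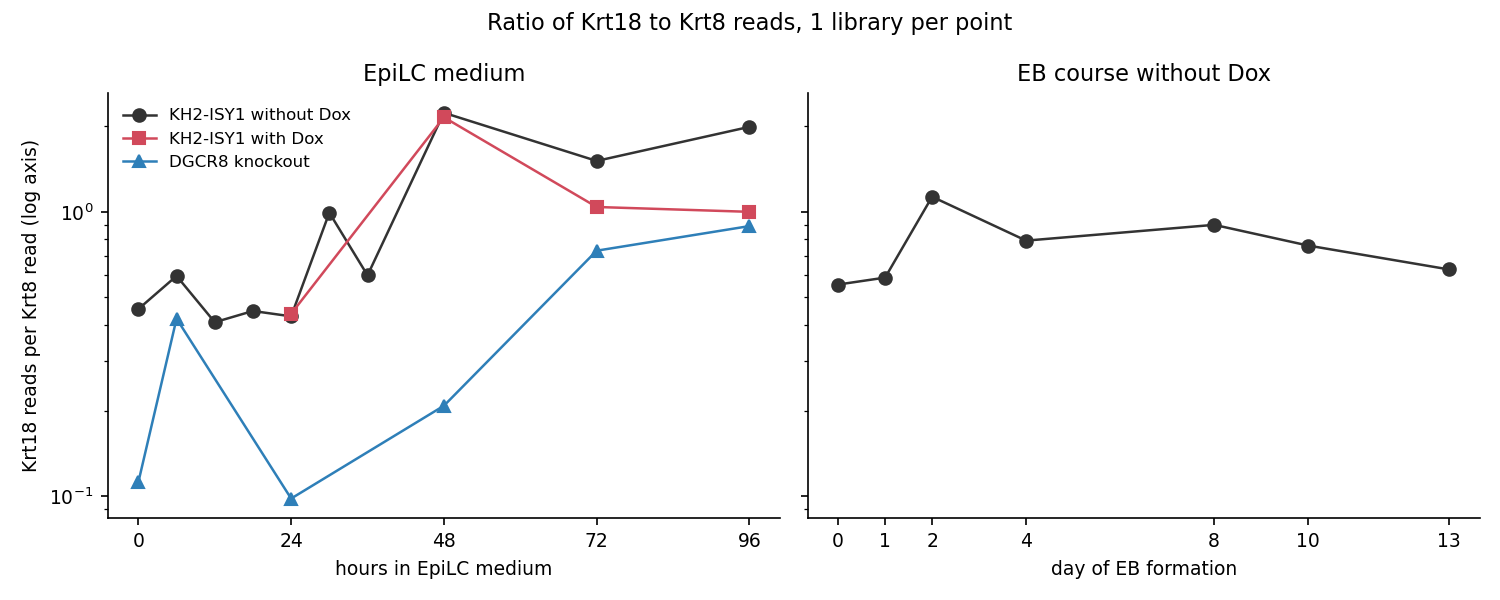
Krt18 reads per Krt8 read (log axis), 1 library per point, against hours in EpiLC medium (left: KH2-ISY1 without Dox in black, with Dox in red, DGCR8 knockout in blue) and against day of EB formation (right). The knockout lies below the reference at all 6 shared hours, with its lowest ratio, 0.0981, at 24 h.

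With Dox, Krt42 stayed high to 96 h and Krt8 and Krt18 stayed below their late levels without Dox. Krt42 was at 202, 172, 210.1 and 119 normalised reads with Dox at 24, 48, 72 and 96 h, against 166, 59.3, 21.5 and 6.8 without. The log2 difference was 0.28, 1.52, 3.23 and 3.94, higher with Dox at 4 of 4 hours, with a mean of 2.24 ± 1.66 (SD over hours, n = 4 pairs). From 48 h on the lowest Krt42 value with Dox, 119, lay above the highest without Dox, 59.3. How many of all genes separate in this way was not counted.

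Krt18 with Dox was at 236, 550.0, 306 and 405.0 normalised reads at the same hours, against 170.0, 759, 881.5 and 2262 without. The log2 difference went from 0.47 at 24 h to -2.48 at 96 h, with a mean of -1.0 ± 1.28 (SD, n = 4 pairs). Krt8 was at 540.2, 256, 294 and 404.5 with Dox, against 396, 339.8, 585.5 and 1137 without, with a mean difference of -0.61 ± 0.83 log2. For both genes the library with Dox was the higher at 24 h and the lower at the 3 later hours.

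Krt19 was at 54.2, 28.9, 46.8 and 57.0 with Dox, against 21.8, 4.4, 28.0 and 212 without, higher with Dox at the first 3 hours and lower at 96 h (mean 0.65 ± 1.83 log2). Krt7 was at 9.3, 7.0, 10.1 and 16.7 with Dox, against 1.8, 9.7, 25.5 and 21.3 without, with a mean difference of -0.03 ± 1.34 log2 that includes the 2 reads of the 24 h library. Over 24 to 96 h each of the 5 genes ranged no more than 2.39-fold with Dox.

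**Figure D3:**
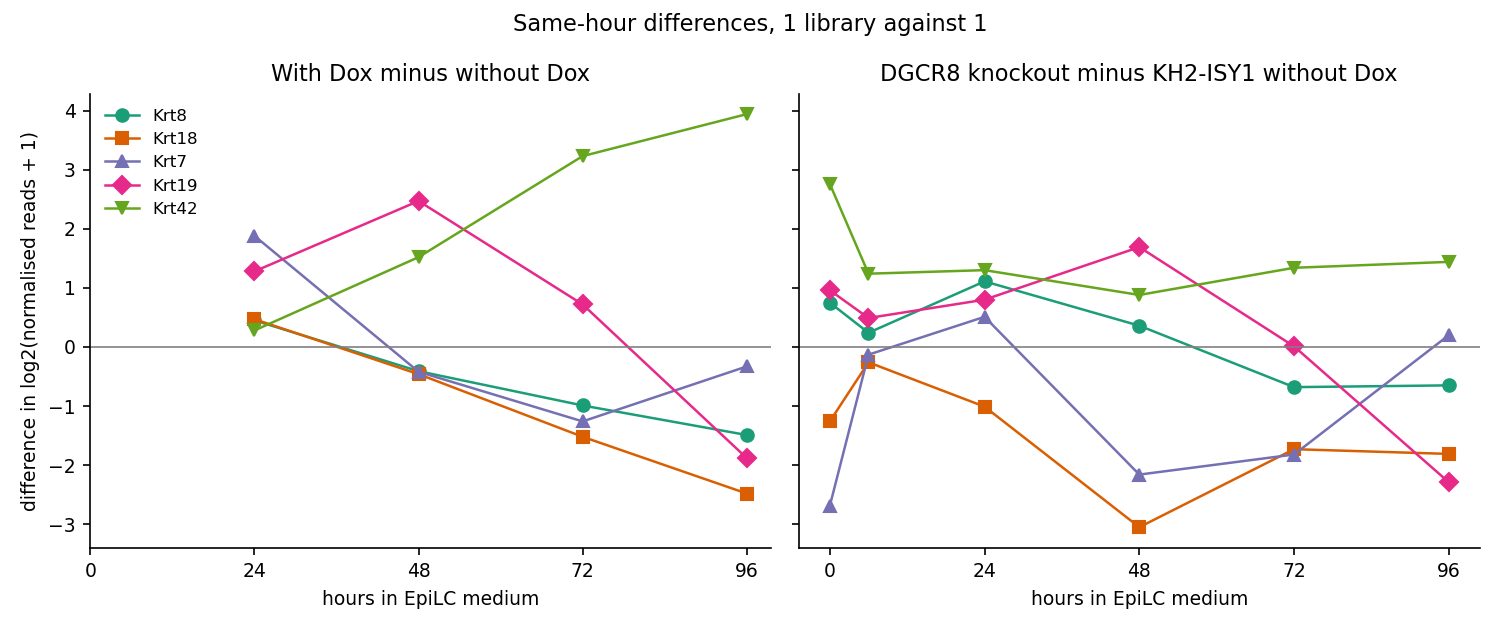
Difference in log2(normalised reads + 1) at the same hour for KH2-ISY1 with Dox minus without (left) and the DGCR8 knockout minus KH2-ISY1 without Dox (right), 1 library against 1 per point, with 1 line per keratin. Krt42 lies above 0 at all hours in both panels, Krt18 below 0 at all hours on the right, and the left panel fans out from 24 to 96 h.

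Of the 5 keratins 0 were called by limma in the Dox comparison (4 hour pairs), in which 2.83% of 16117 genes were called. At an unadjusted p under 0.05 the fit had 3682 genes, and leaving out 1 hour gave 0 calls (48 or 72 h omitted), 66 calls (96 h omitted) or 1122 calls (24 h omitted), so the calls named next rest on single pairs of libraries. For the 5 keratins the SD over hours was 0.83 to 1.83 log2, larger than the mean difference for Krt7, Krt8, Krt18 and Krt19.

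Among the other keratins, Krt17 was the 1 of 8 called in that comparison, higher with Dox by 1.28 ± 0.24 log2 (SE, n = 4 pairs, adjusted p = 0.0456). This type I chain of stressed and appendage epithelium was at 91.6, 74.6, 155 and 129 normalised reads with Dox against 64.5, 32.7, 59.0 and 30.2 without. The list's median was 0.10 log2 against -0.01 for all genes. Krt5, Krt14, Krt20 and Krt80 did not pass (adjusted p = 0.847, 0.755, 0.974 and 0.291).

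Of 16 desmosome genes and linkers 2 were higher and 0 lower with Dox (median 0.29 log2), Perp by 1.18 ± 0.11 and Dst by 0.59 ± 0.09 (adjusted p = 0.0318 and 0.0345). Perp is a desmosome-associated membrane protein and Dst encodes dystonin, which links filaments to hemidesmosomes. Dsp, Jup, Pkp2 and Vim differed by 0.50 ± 0.15, 0.36 ± 0.12, -0.46 ± 0.13 and 0.54 ± 0.15 log2 and did not pass (adjusted p = 0.107, 0.128, 0.0892 and 0.0958). Of 25 junction genes 0 were higher and 2 lower (median -0.27), Cldn7 with -0.87 ± 0.16 and Rab25 with -0.86 ± 0.17 (adjusted p = 0.0447 and 0.0499). Of 12 other intermediate filament genes none was called by limma (median -0.11).

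Endoderm markers were higher with Dox in 5 of 11 cases and lower in 0 (median 0.91 log2). Sox7 and Gata6 differed by 2.08 ± 0.34 and 2.03 ± 0.33, and Lama1 and Col4a2 by 1.14 ± 0.15 and 0.91 ± 0.11 (adjusted p = 0.0371, 0.0371, 0.0345 and 0.0318). Their summed level over 11 genes was 1279 to 2698 with Dox and 779 to 2116 without at the same hours. Of 13 trophoblast markers and 5 feeder markers 0 were called (medians 0.68 and -0.78), and of 4 surface ectoderm markers 1 was called, Grhl3, higher by 1.30 ± 0.21 (adjusted p = 0.036, list median 0.22). Whether these cells carry the keratin differences was not tested.

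In the knockout line Krt42 was higher and Krt18 lower than in KH2-ISY1 without Dox at every shared hour. Krt42 was at 872, 943, 410.1, 110.3, 55.8 and 20.2 normalised reads at 0, 6, 24, 48, 72 and 96 h, against 128, 399, 166, 59.3, 21.5 and 6.8, a mean difference of 1.49 ± 0.65 log2 (SD over hours, n = 6 pairs). Krt18 was at 90.3, 671, 84.0, 91.1, 266 and 646, against 218, 802, 170.0, 759, 881.5 and 2262, a mean difference of -1.52 ± 0.94 log2. The Krt18 difference was smallest at 6 h (-0.26) and largest at 48 h (-3.05).

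Krt8, the partner of Krt18, did not share this offset. It was at 809, 1595, 856.5, 437, 364 and 725 in the knockout, against 480.0, 1349, 396, 339.8, 585.5 and 1137, higher at the first 4 hours and lower at the last 2, with a mean difference of 0.19 ± 0.73 log2. Krt19 was at 36.6, 406, 38.8, 16.4, 28.2 and 42.5, with a mean difference of 0.28 ± 1.38 log2, higher in the knockout at 5 of 6 hours and lower at 96 h. Krt7 was at 9.4, 27.6, 3.0, 1.4, 6.5 and 24.7, with a mean difference of -1.01 ± 1.37 log2, which includes values of 2 and 3 reads.

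Both lines lost Krt42 over the course. In the knockout it was 43.1-fold lower at 96 h than at 0 h, and in KH2-ISY1 18.8-fold, where 11.9% and 16.5% of genes were past 2-fold lower. Krt18 was 7.16-fold and 10.4-fold higher at 96 h, where 16.5% and 15.4% of genes were past 2-fold higher. Krt8 and Krt19, which were 2.37-fold and 11.6-fold higher at 96 h in KH2-ISY1, were within 1.16-fold of their 0 h level in the knockout. Of the 5 keratins 2 were called by limma in the knockout comparison, Krt42 higher and Krt18 lower, beside 42.4% of all genes (18.1% higher and 24.3% lower). The Dox and knockout comparisons share the 4 KH2-ISY1 libraries of 24 to 96 h, so their values are given side by side with no measure of likeness.

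Keratin partners in the knockout went both ways, with 4 of 16 desmosome genes and linkers higher and 4 lower (median -0.10 log2 against -0.08 for all genes). Jup was higher by 1.01 ± 0.19 log2 (SE, n = 6 pairs, adjusted p = 0.00274) and Col17a1 by 1.68 ± 0.24 (adjusted p = 0.000808). Ppl, Pkp3, Dsp and Pkp2 were lower, with differences of -1.60 ± 0.22, -1.52 ± 0.26, -1.22 ± 0.32 and -0.96 ± 0.17 (adjusted p = 0.000673, 0.00182, 0.0143 and 0.00239). Dsp was at 17.8 normalised reads at 48 h in the knockout and at 88.5 in KH2-ISY1. At that hour Krt18 and Krt7 were lower in the knockout, at 91.1 against 759 and 1.4 (3 reads) against 9.7. Krt8, Krt19 and Krt42 were higher there, at 437 against 339.8, 16.4 against 4.4 and 110.3 against 59.3.

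Vim was higher in the knockout by 2.25 ± 0.32 log2 (adjusted p = 0.00079) at 6 of 6 hours, from 639 against 71.3 at 0 h to 813 against 159 at 96 h. Of 12 other intermediate filament genes 2 were higher and 4 lower (median -0.07), with the muscle Des at -3.71 ± 0.36, Prph at -2.42 ± 0.40 and the neuronal Nefh at 1.68 ± 0.23 (adjusted p = 0.000153, 0.0017 and 0.000726). Of 13 other keratins 1 was higher, Krt17 by 1.40 ± 0.41 (adjusted p = 0.0225), and 1 lower, Krt10 with -0.89 ± 0.22 (adjusted p = 0.0118), at a median of -0.52. Krt5, Krt14, Krt20 and Krt80 did not pass (adjusted p = 0.23, 0.183, 0.387 and 0.0622).

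Junction genes were lower in 10 of 25 cases and higher in 3 (median -0.55), with Cldn6 at -3.37 ± 0.33, Crb3 at -2.52 ± 0.45, Marveld3 at -2.29 ± 0.49 and Rab25 at -2.20 ± 0.40 (adjusted p = 0.000163, 0.00223, 0.0056 and 0.00268). Of 13 trophoblast markers 1 was higher (Tead4) and 2 lower (Eomes and Bmp8b), and of 11 endoderm markers 1 was higher (Gata4) and 3 lower (Gata6, Sox7 and Lama1), at medians of -0.10 and 0.08. Of 4 surface ectoderm markers 0 were called by limma (median -0.23), and of 4 feeder markers 2 were lower (Thy1 and Col1a1, median -0.73).

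Cells returned from EpiLC to 2i/LIF fell into 2 pairs by their keratins, and the pairs crossed both the hour and the Dox history. The labels of these 4 libraries were taken as given, and an exchange of 2 of them could change each statement below on hour or Dox history. Krt18 was at 1275 normalised reads in the cESCs from 24 h EpiLCs without Dox and at 931 in those from 48 h with Dox, but at 119 (48 h without Dox) and 134 (24 h with Dox). Naive cells were at 218. In the same order Krt8 was at 594, 882, 142 and 323 with naive cells at 480.0, and Krt19 at 70.8, 74.8, 5.5 and 17.5 with naive cells at 18.3.

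Krt7 followed them, at 281, 174, 74.5 and 44.7 with naive cells at 66.1, and Krt42 had the reverse order, at 10.8, 57.7, 96.4 and 133 with naive cells at 128. Against naive cells, the 24 h library without Dox was past 2-fold higher for Krt7, Krt18 and Krt19 (4.25-fold, 5.84-fold and 3.87-fold), where 5.47% of genes were, and 11.8-fold lower for Krt42, where 18.9% were past 2-fold lower. The 48 h library with Dox was past 2-fold higher for the same 3 genes (2.63-fold, 4.26-fold and 4.09-fold), where 4.92% of genes were, and 2.21-fold lower for Krt42, where 12.1% were past 2-fold lower. The 24 h library with Dox was within 1.63-fold of naive cells for all 5, and the 48 h library without Dox was lower for Krt8 (3.39-fold) and Krt19 (3.33-fold), where 10.8% of genes were past 2-fold lower. The Krt19 value of the 48 h library without Dox rests on 6 reads.

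**Figure D4:**
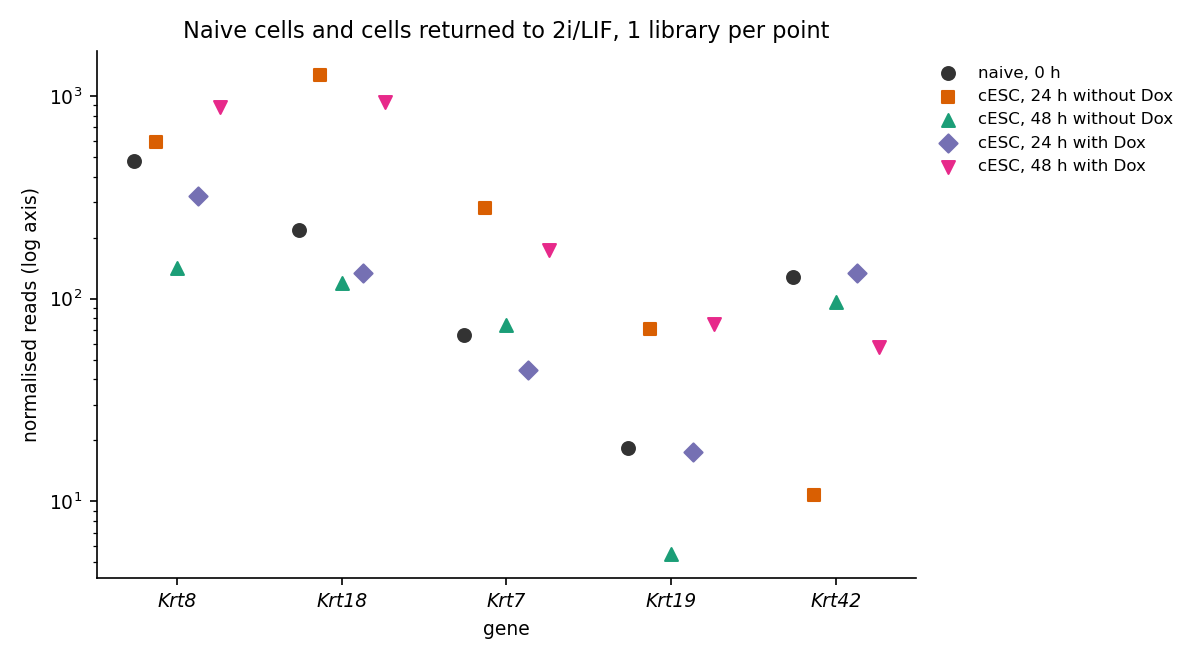
Normalised reads (log axis) of the 5 keratins in naive cells at 0 h and in the 4 libraries of cells returned to 2i/LIF, 1 library per point. For Krt8, Krt18, Krt7 and Krt19 the 24 h library without Dox and the 48 h library with Dox are the highest, and for Krt42 they are the lowest.

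Set against the EpiLCs they came from, all 4 cESC libraries were higher in Krt7. It went from 9.7 to 74.5 (7.68-fold, 48 h without Dox), from 9.3 to 44.7 (4.81-fold, 24 h with Dox), from 7.0 to 174 (24.8-fold, 48 h with Dox), and from 2 reads to 281 normalised reads (24 h without Dox). Past 2-fold higher than their source were 8.12%, 5.87%, 7.67% and 11.1% of genes in these comparisons. Krt18 differed in sign, 7.5-fold above its source in the 24 h library without Dox and 6.38-fold below it in the 48 h library without Dox, where 14.3% of genes were past 2-fold lower.

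The cESC pairs differed in other measures as well. The sum of 10 pluripotency markers was 12569 and 15714 in the libraries with high Krt18 and 17485 and 20470 in the others, with naive cells at 24070. The values that follow are in the order 24 h without Dox and 48 h with Dox (high Krt18), then 48 h without Dox and 24 h with Dox. Of all genes, 5.47%, 4.92%, 2.90% and 2.34% were past 2-fold above naive cells and 18.9%, 12.1%, 10.8% and 9.90% below. Junction genes were past 2-fold higher for 9, 8, 1 and 1 of 25 genes and lower for 3, 3, 4 and 2. The other keratins, of which 5 or 6 could be compared, were higher in 0 cases in all 4 libraries and lower in 4, 4, 2 and 1.

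Trophoblast markers, of which 12 or 13 could be compared, were past 2-fold above naive cells for 4, 5, 1 and 0 genes and below for 5, 2, 6 and 3. Gata3 was at 18.3, 23.4, 2.7 and 3.5 normalised reads and Fgfr2 at 35.0, 24.3, 1.8 and 3.5, higher in the pair with high Krt18. Gata2 was at 33.3, 86.5, 20.0 and 14.0 and Tfap2c at 167.5, 197, 133 and 109, in the same order of pairs, and Cdx2 was at 0.0, 0.9, 0.0 and 2.6. Tead4 and Tfap2a had the reverse order, Tfap2a at 5.0, 8.1, 20.0 and 26.3 and Tead4 at 102, 138, 214.5 and 286. Eomes, at 10.8, 30.6, 19.1 and 45.6, did not follow the pairs. Tead4 is a large part of the trophoblast sums. Those sums were 411, 570.1, 432 and 509, endoderm sums 838, 1007, 1106 and 1485, surface ectoderm sums 165, 219.8, 156 and 175 and feeder sums 29.3, 29.7, 31.9 and 42.1. Their part in the keratin levels was not tested.

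In the EB course Krt8 and Krt18 were low at day 2 and high from day 8. Krt8 was at 352, 245, 97.3, 596, 1838, 2307 and 3587 normalised reads at days 0, 1, 2, 4, 8, 10 and 13, and Krt18 at 195, 144, 110.0, 472, 1654, 1756 and 2248. At day 13 they were 10.2-fold and 11.5-fold above serum/LIF cells, where 26.7% of genes were past 2-fold higher. Here the pair ran side by side, with a Pearson r of 0.98 over the 8 libraries of the table against 0.41 over the 24 of the EpiLC table, as a description over libraries that share time and depth.

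Krt7 came later, at 15.0, 9.14, 7.11, 21.9, 20.0, 54.4 and 99.4 normalised reads. It was 6.63-fold above day 0 at day 13. Krt19 had its highest value before the EBs formed, at 759, 60.0, 46.7, 126, 138, 244 and 569, so that it was 12.6-fold lower at day 1 than at day 0, where 14.2% of genes were past 2-fold lower. Krt42 was at 87.7, 63.1, 10.4, 3.13, 0.59, 1.67 and 1.11, and the last 3 values rest on 1, 3 and 2 reads.

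**Figure D5:**
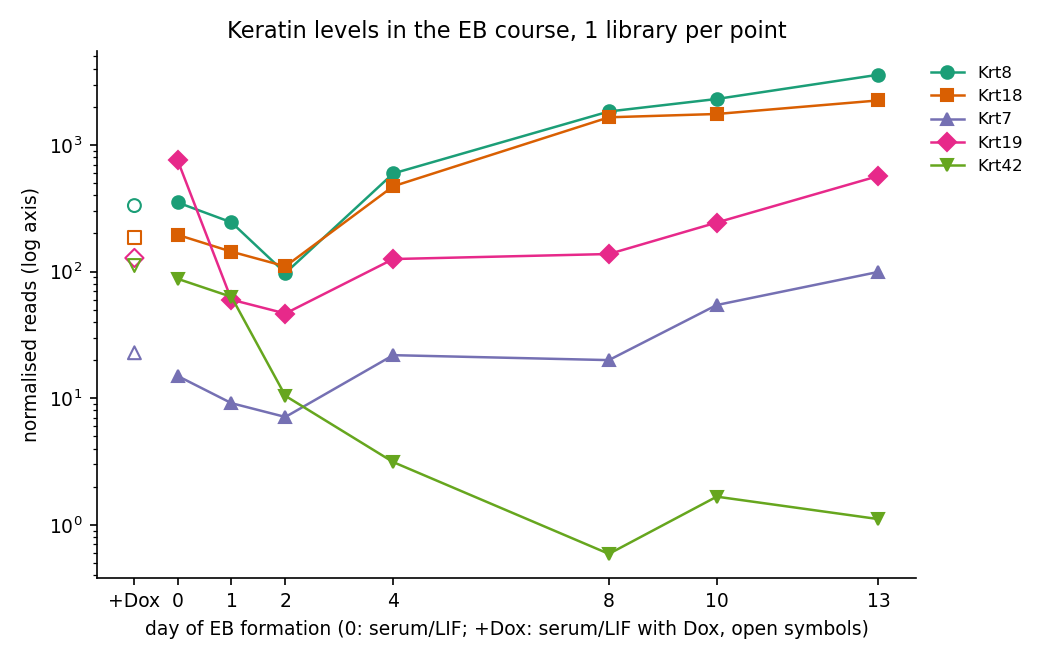
Normalised reads (log axis) of the 5 keratins against the day of EB formation, 1 library per point, with serum/LIF cells with Dox as open symbols at the left. Krt8 and Krt18 rise together from day 2, Krt19 starts at 759 and reaches 569 at day 13, and Krt42 ends near 1.

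All 5 keratins were called by limma in the EB course, beside 26.9% of 16753 genes, and the fit put Krt42 lower at the end, beside 9.61% of genes, and the other 4 higher, beside 17.3%. Median-of-ratios scaling moved the median gene by -0.11 log2 between the ends of this course, which is less than each fold given above. For Krt19 the fitted change was 0.12 log2, it was 3.15 without the day 0 library and -1.20 without the day 13 library, so its end-to-end direction rests on those libraries.

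The late increase of Krt8 and Krt18 moved with endoderm markers. The 18 primitive and visceral endoderm markers summed to 5318, 794, 578, 12989, 41628, 60037 and 64598 normalised reads at the 7 times, and 14 of 18 rose and 0 fell by limma (median 6.61 log2 against 0.12 for all genes). Ttr, Afp, Apoa1 and Apob, secreted proteins of visceral endoderm, rose by 13.09 ± 1.76, 12.64 ± 1.11, 9.66 ± 1.56 and 9.62 ± 1.31 log2 (adjusted p = 0.00492, 0.00113, 0.00727 and 0.00536), Afp and Ttr from 0 at day 0 to 2807 and 1387 at day 13. Of 15 trophoblast markers 8 rose and 2 fell (median 0.28), among them Tpbpa, Plac1, Cdx2 and Gata3 by 4.68, 4.66, 4.49 and 4.48 (adjusted p = 0.0109, 0.038, 0.0158 and 0.00967), with sums from 217 at day 2 to 886 at day 13. The part of either cell type in the keratin levels was not tested.

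Feeder fibroblast markers were called higher for 2 of 8 genes, Col1a2 and Col3a1 (median 4.54), and their sum was 268 at day 0, 27.5 at day 1 and 12764 at day 13. The list is named for feeders, but which cells of the EBs carried these markers was not tested. Of 6 surface ectoderm markers 1 rose, Tfap2b by 8.53 ± 0.69, and 1 fell, Grhl3 with -2.74 ± 0.37 (adjusted p = 0.000926 and 0.00421, median 2.06). At day 13, Krt5 was at 91.7, Krt20 at 41.1 and Krt15 at 27.8 normalised reads, against 4.32, 2.27 and 3.18 at day 0. Neither Krt5 nor Krt20 passed the test (adjusted p = 0.129 and 0.0535). Of 10 other keratins 0 rose and 2 fell, Krt17 with a change of -5.38 ± 0.89 and Krt13 of -5.2 ± 1.07 log2 (adjusted p = 0.0101 and 0.01, list median 1.01), so that these 2 type I chains moved with Krt42 and not with Krt18.

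Desmosome genes and linkers did not rise with Krt8 and Krt18 in EBs. Of 16, 1 rose and 5 fell (median -1.75 log2): Dsc2, a desmosomal cadherin, rose by 3.51 ± 0.70 (adjusted p = 0.0145), and Perp, Plec, Pkp3 and Pkp2 fell, with changes of -3.65 ± 0.48, -2.42 ± 0.42, -2.17 ± 0.38 and -1.58 ± 0.29 (adjusted p = 0.00466, 0.00959, 0.00825 and 0.0152). Dsp was at 354, 94.0 and 613 normalised reads at days 0, 2 and 13 and did not pass (adjusted p = 0.139), nor did Jup (adjusted p = 0.415). Of 25 junction genes 4 rose and 4 fell (median -0.84), with Cldn6, Marveld2 and Esrp2 at 2.34, 2.07 and 1.60 and Epcam at -1.70 (adjusted p = 0.0445, 0.0118, 0.0244 and 0.00491). Of 13 other intermediate filament genes 5 rose and 2 fell (median -0.89), led by Vim (5.69 ± 0.54, adjusted p = 0.00163), the neurofilaments Nefl and Nefm (4.97 ± 0.32 and 4.67 ± 0.72, adjusted p = 0.000569 and 0.0045) and Nes (3.94 ± 0.70, adjusted p = 0.011).

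In serum/LIF with Dox, Krt19 was at 128 normalised reads against 759 without Dox, 5.92-fold lower, where 8.20% of genes were past 2-fold lower. The other members were close in the 2 libraries, Krt7 at 22.9 against 15.0, Krt8 at 332 against 352, Krt18 at 186 against 195 and Krt42 at 112 against 87.7. Feeder markers differed between these libraries, with a sum of 79.8 with Dox and 268 without and 4 of 4 compared genes past 2-fold lower, 4 of the 8 being at or under 3 reads in each. The endoderm sum was 3988 against 5318, the trophoblast sum 545 against 619 and the surface ectoderm sum 241 against 439. Their part in the Krt19 difference was not tested.

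Genes whose pattern was most like that of Krt8 or Krt18 were not the same in the 2 tables. The measure is Pearson's r of log2(normalised reads + 1) over the libraries of a table, which share time and depth, among genes with a mean of at least 10, keratins left out. Over 24 EpiLC-table libraries genes among the nearest to Krt8 were Crk (0.819), Ier3 (0.815), Vstm5 (0.797) and Asb13 (0.788), of which Vstm5 went from 1.8 at 30 h to 297 normalised reads at 6 h in KH2-ISY1 without Dox. The nearest to Krt18 were Rhbdf1 (0.864), Mafk (0.837), Gm7809 (0.828), Chrnb1 (0.818) and Cdcp1 (0.815).

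Over the 8 EB-table libraries the nearest to Krt18 were Apoa1 (0.998), Cdhr2 (0.996), Sox17 (0.996), Pdgfra (0.994) and Aph1a (0.994), of which Apoa1, Sox17 and Pdgfra are in the endoderm list. The nearest to Krt8 were Nkain4 (0.996), Sparc (0.990), Fhl2 (0.988), Rhox9 (0.984) and Pga5 (0.984). Among the keratins themselves, the closest pair in the EpiLC table was Krt8 with Krt19 (0.83) and the most opposed was Krt18 with Krt42 (-0.59), which in the EB table stood at 0.58 and -0.83.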

How the data were processed

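PolyA RNA was sequenced with a stranded TruSeq kit, per the labels' protocols. Bowtie and the builds GRCm38 and mm9 are named, without roles, in the submitters' processing notes, and the gene counter and its use of strand are not given in the sources used here. The deposited values are a scaled signal, which the authors made by dividing gene read counts by 1 factor per library. In 24 of 32 libraries the values could be turned back into whole reads (within 0.1 reads, at least 93.9% of values). The 2 tables were scaled separately, so tests stay within a table. The 1 line without a gene name (at most 0.00589% of a library) was left out, and 10 small RNA libraries were not used.

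Genes with a mean of at least 1 were fitted as log2(value + 1) with limma 3.58.1 in R 4.3.3 (empirical Bayes with intensity trend, two-sided, Benjamini-Hochberg over all genes tested, threshold 0.05). Courses were modelled over square-root time by natural splines (3 degrees of freedom in the EpiLC course, 2 in the EB course), and direction is the fitted end minus the start. The p of a course is from an F test of all spline terms together, so direction itself was not tested. The Dox and knockout fits used hour as a block, over 4 and 6 pairs, so the spread over hours stands in for replicate spread, and which animals or cultures the libraries came from is not stated. Residual degrees of freedom were 6, 3, 5 and 4 (EpiLC, Dox, knockout, EB). Differences on this log2 scale understate low genes. Between single libraries, called means past 2-fold on the same scale, as do the shares of all genes. The folds printed beside them are plain ratios of the values, without the added 1. In simulated data each fit recovered 100 of 100 genes changed 4-fold, and of 100 changed 2-fold the EpiLC, Dox, knockout and EB fits recovered 37, 99, 100 and 52, so that in the 2 courses a gene that did not pass may still have changed by that much. The changed genes were drawn from the more highly expressed, with 1 dispersion for all and, in the paired fits, the same change at every hour. The simulation therefore does not cover low genes or differences that vary over hours, as those of the keratins did. Such genes may have changed in the Dox and knockout fits without passing. edgeR 4.0.16 on recovered reads and a fit without the 30 and 36 h libraries were added after seeing the data.

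The 5 members and all gene lists were chosen with earlier results of these data known. Named were the 5 members, up to 4 called genes of largest change per list and comparison, Krt5, Krt14, Krt20, Krt80, Dsp, Pkp2, Jup and Vim whatever their value, and the 5 genes most like Krt8 and Krt18, of which 1 is not reported here. Krt10, Krt12, Krt15, Krt6a, Dlx3, Col3a1, Elf5, Fgfr2 and the targeted genes Isy1 and Dgcr8 were added for single values. RefSeq promoter windows matched 4 of 5 members.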

Additional observations from a re-analysis of the deposited data

Results flagged for a closer look

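In the cells returned to 2i/LIF, each of the 5 keratins differed between Dox and no-Dox history in opposite directions at 24 and 48 h. The log2 difference, with Dox history minus without, was -2.62 at 24 h and 1.21 at 48 h for Krt7, a gap of 3.84. It was -0.88 and 2.63 for Krt8 (gap 3.51), -3.24 and 2.96 for Krt18 (gap 6.19) and -1.96 and 3.54 for Krt19 (gap 5.50). For Krt42 the signs were the other way, 3.51 at 24 h and -0.73 at 48 h, a gap of -4.24. The labels of these libraries were taken as given, and an exchange of 2 of them could change these signs. Each condition had 1 library, so these differences between hours were not tested.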

How the results depend on the processing

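Counts of called genes were within 1.5 times the reported value in 62 of 77 alternatives. In the Dox fit the 456 calls became 0 with no intensity trend, 0 with no hour block, 109 with edgeR on the 2 pairs of recovered reads, and 0 to 1122 when 1 pair was left out. The knockout fit had 6899 calls, 3487 with no hour block and 5517 to 6316 without 1 pair. edgeR could not be run there, since 1 of the knockout libraries gave whole reads. The EpiLC course had 8125 calls, 6651 with edgeR on 9 libraries, 7074 without the 30 and 36 h libraries and 6090 to 8262 without 1 library. The EB course had 4505 calls, 4540 with edgeR and 1919 to 5847 without 1 library. With a pseudocount of 5, genes past 2-fold from naive cells numbered 1305, 1102 and 1795 instead of 2163, 1932 and 2701 (48 h without Dox, 24 h with Dox, 48 h with Dox), and 816 instead of 1504 for serum/LIF with Dox. The causes were not tested. The labels give no replicate numbers, and the pairing of the Dox and knockout fits is by hour alone.

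The fitted sign of Krt42 and Krt18 was kept under every alternative of all 4 fits. Their size in the EpiLC course ranged from -5.85 to -2.61 and from 1.39 to 3.31 log2. The sign of Krt7 turned in 5 of 12 alternatives of the Dox fit. That of Krt8 was kept in 17 of 19 EpiLC and 11 of 12 Dox alternatives. Krt19 kept its sign in 17 of 19 EpiLC, 12 of 13 knockout and 11 of 15 EB alternatives. In the EpiLC course, the end-to-start changes of Col1a1, Jup, Vim, Pdgfrb, Krt80 and Krt5 turned under some alternatives, those of Pdgfrb and Krt80 without the 0 h library. With 1 spline degree of freedom fewer, Col1a1, Jup and Vim were at -0.56, -0.87 and -0.65 log2. When 1 library was left out, Col1a1 ranged from -0.50 to 0.98, Jup from -1.78 to 0.35, Vim from -3.26 to 1.12, Pdgfrb from -1.75 to 2.13, Krt80 from -2.37 to 0.36 and Krt5 from -6.92 to 0.54. Krt5 was at 0.15 without the 30 and 36 h libraries, and Col1a1 and Jup at -0.53 and -0.30 with edgeR. Depth limits Krt7 between 18 and 48 h and Krt42 in late EBs, which rest on few reads. It also limits Krt19 at 48 h without Dox (5 reads), with the Dox and knockout differences at that hour. Krt19 in the cESCs from 48 h without Dox rests on 6 reads.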
